A study of Homo sapiens with 4 samples.

Results

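The enzymes of de novo purine synthesis were examined at the RNA level in Huh7, a human hepatocellular carcinoma line, upon METTL16 KO. The group was defined by gene symbol as PPAT, GART, PFAS, PAICS, ADSL, ATIC, IMPDH1, IMPDH2, GMPS and ADSS, in pathway order, and all 10 were found among the 18806 gene symbols of the deposited table. RNA-seq was carried out on 4 libraries. In 2 of them (sgNS) the cells carried a guide RNA without a target, and in the other 2 (METTL16 KO) a guide against METTL16, a methyltransferase that places N6-methyladenosine on RNA. All 4 share the Huh7 background, a single clone expressing Cas9, lentiviral delivery of the guide and selection with hygromycin B. The labels give the genotype of the second group as METTL16 knockdown, and the study's figures name 1 guide for it, so a response to the loss of METTL16 and a response to that guide cannot be told apart. The sample titles number its libraries sgMETTL16-1 and sgMETTL16-2, and these were read here as replicate numbers, not as 2 guides. The study's methods call the 2 libraries of a group biological replicates without saying whether they came from separate transductions. The p-values therefore measure only the spread between these libraries, which the test used below shares in part among genes of similar level.

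Cells build purines on a ribose phosphate. PPAT commits phosphoribosyl pyrophosphate (PRPP) to the pathway, and GART, PFAS, PAICS, ADSL and ATIC then assemble the ring up to inosine monophosphate (IMP). From IMP, IMPDH1 or IMPDH2 followed by GMPS lead to GMP, while ADSS followed by ADSL lead to AMP. Salvage enzymes make the same nucleotides from free bases and nucleosides, and proliferating cells are known to draw heavily on the de novo route for ribosomal RNA, mRNA and DNA.

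Most of the pathway was lower upon METTL16 KO. The RNAs of 8 of the 10 enzymes fell, with IMPDH2 at 51.3%, ATIC at 52.2% and PAICS at 59.6% of their sgNS means. In bulk RNA, fewer cells in a given state and less RNA per cell cannot be told apart. ADSL rose slightly, which did not hold after median-ratio or quantile scaling, and GART did not pass the test. The test was limma on log2(TPM + 0.1), run over the 11971 genes whose mean was at least 1 TPM, and called at a Benjamini-Hochberg adjusted p under 0.05 over all of them. All 10 enzymes passed that filter on low values. By the same rule 25.6% of all genes were called lower and 50.1% higher, against 8 and 1 of the 10 enzymes. The groups did not overlap in any of the 10, which was the case for 87.4% of all genes, so that this count says little about the enzymes. No enzyme reached the fold threshold the study used (1 or more on the log2 scale in either direction, here with an unadjusted p under 0.01), which 11.4% of all genes did. The study examined a purine nucleotide synthesis gene set in these same libraries, so the direction of the group is not independent evidence.

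**Figure D1:**
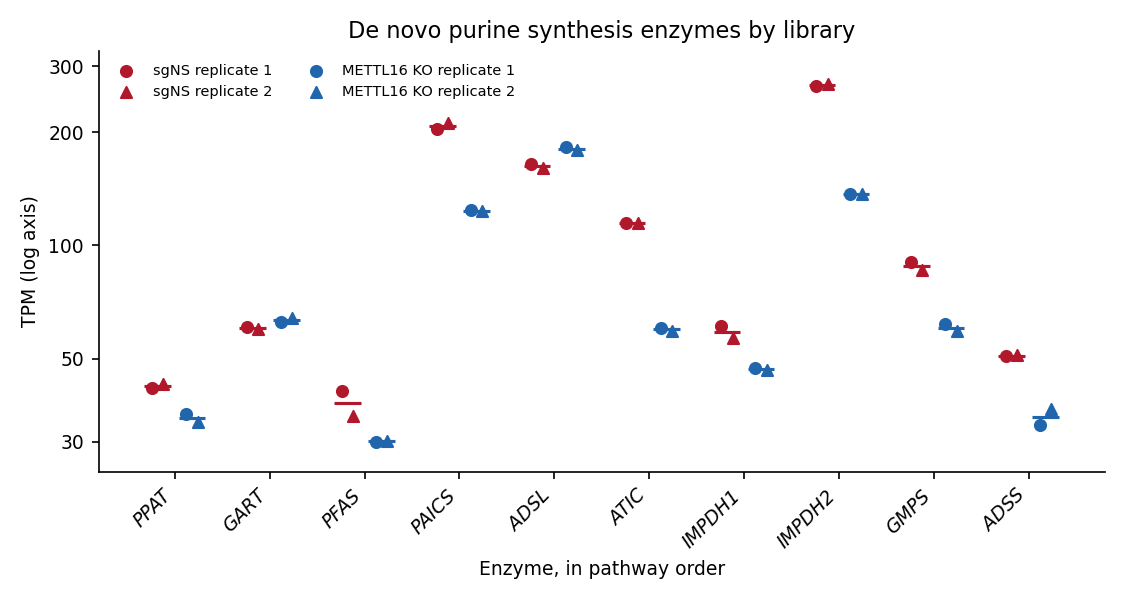
TPM (log axis) of the 10 enzymes in pathway order. Points are single libraries (circle, replicate 1; triangle, replicate 2; red, sgNS; blue, METTL16 KO) and bars are group means; IMPDH2, PAICS and ATIC are the pairs of groups that lie farthest apart, while ADSL and GART are the ones with METTL16 KO above sgNS.

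The deposited values are TPM, or transcripts per fixed total of transcripts, corrected for gene length, so that levels can be set beside each other between genes but a change in the most abundant genes moves all others. The 100 most abundant genes of each library held 32.6% and 32.8% of the total in sgNS, and 28.6% and 28.7% in METTL16 KO. The depth of the libraries is unknown, since TPM keeps no read counts. Over all 11971 genes the log2 fold changes had a median of 0.16, against -0.44 over the 10 enzymes. After median-ratio scaling 4375 genes were called lower and 4359 higher, against 3065 and 5999 as deposited, and 8 enzymes were still called lower and 0 higher. As deposited, all 10 enzymes lay below the median of all genes. After quantile normalization ADSL lay above it, at 0.079 against a median of 0.011. METTL16 itself, the targeted gene, measured 26.3 and 25.1 TPM in the sgNS libraries, against 17.6 and 18.8 TPM in those with METTL16 KO. Both METTL16 KO libraries were thus below both sgNS libraries (log2 fold change -0.50, limma adjusted p of 2.4e-05), and Cas9 edits need not remove the transcript. The markers of liver origin fixed for this work, among them ALB and AFP, were present in all libraries, with summed levels of 15944 to 16099 TPM in sgNS and 29376 to 29806 TPM in METTL16 KO. AFP changed most, with a mean of 1765 TPM in sgNS and 10292 TPM in METTL16 KO. Of these 8 liver markers, 7 were called higher and 1, APOB, lower (log2 fold change -0.17), against 50.1% and 25.6% of all genes. The count of those called higher depended on scaling. SERPINA1 did not pass after median-ratio scaling, at 0.0044 (limma adjusted p of 0.88). ALB did not pass after quantile normalization, at 0.049 (limma adjusted p of 0.13). Of 8 markers of blood, endothelial and stromal cells, 4 (PTPRC, VWF, COL1A1 and ACTA2) stayed under 1 TPM in every library, and the 8 summed to 9.97 and 11.1 TPM in sgNS and to 14.1 and 15.5 TPM in METTL16 KO. Of the 3 of them that were tested, CD68, a macrophage marker, was called higher (log2 fold change 1.49), and PECAM1 and PDGFRB, of endothelial and perivascular cells, were called lower (-0.75 and -0.67). The part of these markers in the change of the enzymes was not tested.

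**Figure D2:**
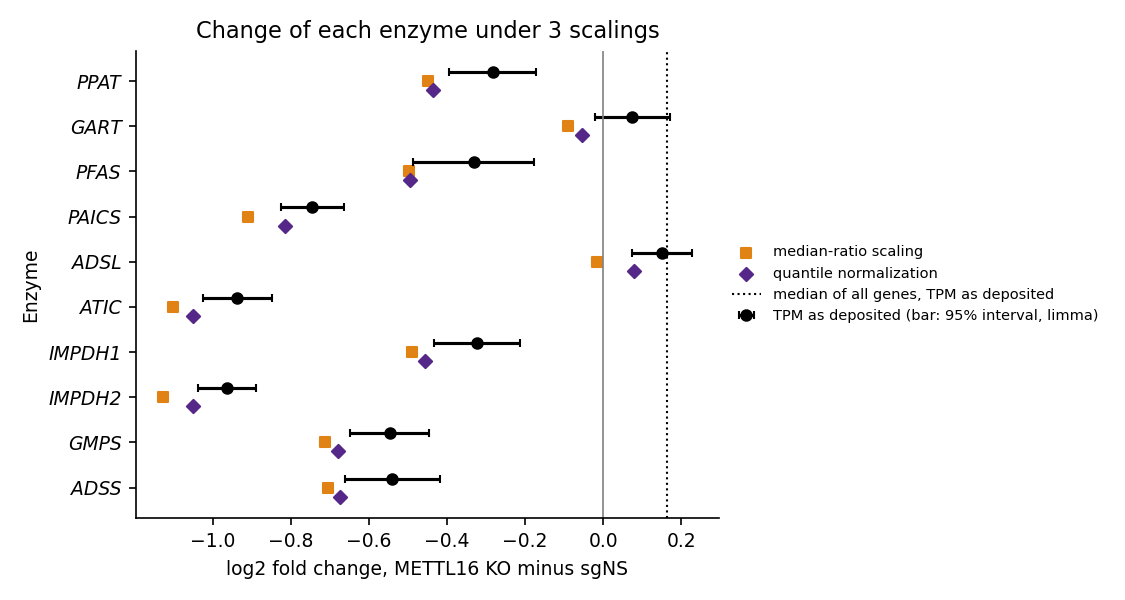
Log2 fold change of each enzyme, METTL16 KO minus sgNS. Black points with bars are limma estimates with 95% intervals on TPM as deposited, orange squares follow median-ratio scaling and violet diamonds quantile normalization; 8 enzymes lie below 0 in all 3, whereas ADSL and GART lie on different sides of 0 depending on the scaling.

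The 6 enzymes of IMP synthesis divided into 4 that fell and 2 that did not. PPAT, the amidotransferase of the committed and feedback-regulated step, measured 41.8 and 42.7 TPM in the sgNS libraries, against 35.5 and 33.9 TPM in those with METTL16 KO. Both METTL16 KO libraries were lower, and the log2 fold change was -0.28 ± 0.050 (SE, limma adjusted p of 3.8e-04). This was the smallest of the 8 falls, with 19.4% of all genes having a lower log2 fold change. In GENCODE 44 (GRCh38), PPAT occupies 56393362 to 56435615 of chromosome 4 on the minus strand.

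GART is a trifunctional protein that carries several of the early reactions and consumes formyl folate. It measured 60.6 and 59.7 TPM in the sgNS libraries, against 62.7 and 64.1 TPM in those with METTL16 KO. The METTL16 KO libraries were slightly higher without overlap, but the log2 fold change of 0.075 did not pass (95% interval from -0.021 to 0.17, adjusted p of 0.14 from limma). After median-ratio scaling, which sets the median gene near 0, GART was at -0.091 with an adjusted p of 0.079 from limma. GART lies on the minus strand of chromosome 21 from 33503931 to 33543491.

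PFAS transfers the amide nitrogen of glutamine onto the growing ring. It measured 41.0 and 35.1 TPM in the sgNS libraries, against 30.04 and 30.18 TPM in those with METTL16 KO. The sgNS libraries differed from each other by more than in any other enzyme relative to their mean, and the lower of them was still above both METTL16 KO libraries. The log2 fold change was -0.33 ± 0.070 (SE, limma adjusted p of 0.0013). Without sgNS replicate 1 it was -0.22, and without sgNS replicate 2 it was -0.44, so the size of the change depended on which control library was kept. PFAS lies on the plus strand of chromosome 17 from 8247618 to 8270491.

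PAICS joins a carboxylase and a synthetase that act one after the other. It measured 204 and 212 TPM in the sgNS libraries, against 124.3 and 123.6 TPM in those with METTL16 KO. Both METTL16 KO libraries were far below both sgNS libraries, and the log2 fold change was -0.74 ± 0.036 (SE, limma adjusted p of 1.7e-08). Only 6.77% of all genes had a lower log2 fold change.

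PAICS and PPAT are neighbours that are transcribed away from each other. PAICS lies on the plus strand of chromosome 4 from 56435741 to 56464578, and in RefSeq (GRCh38.p14) the start of PPAT at 56435615 and a start of PAICS at 56435752 are 136 bases apart. The stretch between them is shown because it precedes both genes, with the GC box GGGCGG in capitals. It is written 5′ to 3′ on the plus strand and covers chr4:56435616-56435751.
PPAT-PAICS: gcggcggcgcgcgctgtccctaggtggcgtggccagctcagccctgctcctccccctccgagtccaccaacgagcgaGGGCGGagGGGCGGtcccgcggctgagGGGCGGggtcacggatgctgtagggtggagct
Although they share this stretch, the pair did not change by the same amount. The ratio of PAICS to PPAT was 4.88 and 4.96 in sgNS and 3.50 and 3.64 in METTL16 KO. This ratio is untouched by any factor that scales a whole library, and its log2 was 0.46 lower in METTL16 KO (a difference of -0.46), against a pooled SD between replicates of 0.030. An exact permutation test, two-sided, cannot give a p under 0.333 with 2 libraries a group, so ratios are given as values without a test.

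ADSL, a lyase, acts both late in IMP synthesis and in the last step to AMP. It measured 164.8 and 161.2 TPM in the sgNS libraries, against 182.6 and 179.4 TPM in those with METTL16 KO. ADSL was higher in both METTL16 KO libraries, with a log2 fold change of 0.15 ± 0.035 (SE, limma adjusted p of 0.0023). This is nearly the median of all genes (49.0% of genes had a lower log2 fold change), and the direction depended on scaling, with -0.015 after median-ratio scaling (adjusted p of 0.71) and 0.079 after quantile normalization (adjusted p of 0.056), both from limma. ADSL lies on the plus strand of chromosome 22 from 40346461 to 40390463. An exon of ADSL overlaps an exon of another protein-coding gene on that strand by up to 204 bases, and the part of this in the values was not tested.

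ATIC, a transformylase and cyclohydrolase, closes the ring to IMP and is the other consumer of formyl folate. It measured 114.6 and 114.7 TPM in the sgNS libraries, against 60.3 and 59.4 TPM in those with METTL16 KO. The replicates were nearly identical within each group and the groups lay far apart, with a log2 fold change of -0.94 ± 0.040 (SE, limma adjusted p of 5.8e-09). Only 4.30% of all genes had a lower log2 fold change. ATIC lies on the plus strand of chromosome 2 from 215311956 to 215349773.

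The promoters of ATIC and GART are shown for contrast, as the enzyme of IMP synthesis that fell most and one that did not pass. Each line gives the 250 bases before a RefSeq start (GRCh38.p14), 5′ to 3′ on the strand of the gene, for ATIC chr2:215311809-215312058 and for GART, on the minus strand, chr21:33542893-33543142. Capitals mark the E-box CACGTG in ATIC and the CCAAT box, on either strand, in GART. GART has more than 1 RefSeq start, and the one shown was picked because its window held 3 CCAAT boxes. Another GART window (chr21:33542068-33542367) held 1 CCAAT box, 3 GC boxes and 1 TATAAA.
ATIC: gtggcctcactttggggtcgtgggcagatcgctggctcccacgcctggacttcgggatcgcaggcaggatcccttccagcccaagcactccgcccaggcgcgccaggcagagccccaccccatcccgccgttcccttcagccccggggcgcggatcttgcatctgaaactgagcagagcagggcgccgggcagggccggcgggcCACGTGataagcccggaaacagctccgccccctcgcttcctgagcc
GART: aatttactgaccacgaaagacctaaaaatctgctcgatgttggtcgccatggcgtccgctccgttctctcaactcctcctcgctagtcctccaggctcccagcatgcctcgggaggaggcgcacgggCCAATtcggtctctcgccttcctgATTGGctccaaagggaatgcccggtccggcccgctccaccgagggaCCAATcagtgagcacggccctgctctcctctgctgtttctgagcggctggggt
A total of 5 motifs were searched on both strands in windows of 250 bases before and 50 after each RefSeq start, and windows were found for 8 of the 10 enzymes, not IMPDH2 and ADSL. The E-box CACGTG, which MYC with its partner MAX and other factors can bind, was in a window of ATIC, PPAT and PAICS, or 3 of 8, against 8.77% of 27305 genes. ATIC had one 46 bases before its start (-46) and one 29 bases after it. PPAT and PAICS share a single E-box, 40 bases after the PAICS start (ctgtatttgctgCACGTGgaaa, chr4:56435780-56435801, E-box in capitals). The GC box GGGCGG was in a window of all 8 (48.3% of genes), and CCAAT was in those of GART alone (39.7% of genes). TATAAA was also in those of GART alone (14.0% of genes), and GCGCATGC, part of the NRF1 site, was in none (3.68% of genes). These are matches of letters, and binding was not measured in these libraries.

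The GMP branch was the part of the pathway in which every member fell. IMPDH2, the inducible and rate-limiting dehydrogenase of GMP synthesis, was the most abundant of the 10 enzymes in sgNS, at 266 and 269 TPM, and was at 136.95 and 137.01 TPM in METTL16 KO. The groups lay far apart, with a log2 fold change of -0.96 ± 0.033 (SE, limma adjusted p of 1.3e-09), the largest fall of the 10. Only 4.09% of all genes had a lower log2 fold change. IMPDH2 lies on the minus strand of chromosome 3 from 49024325 to 49029447.

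IMPDH1 is the second isozyme and catalyses the same reaction. It measured 60.9 and 56.6 TPM in the sgNS libraries, against 47.1 and 46.6 TPM in those with METTL16 KO. Both METTL16 KO libraries were lower, with a log2 fold change of -0.32 ± 0.050 (SE, limma adjusted p of 1.3e-04). IMPDH1 lies on the minus strand of chromosome 7 from 128392277 to 128409986. The isozymes thus fell by different amounts, and the ratio of IMPDH2 to IMPDH1, at 4.36 and 4.75 with sgNS, dropped to 2.91 and 2.94 with METTL16 KO. Its log2 differed by -0.64, against a pooled SD between replicates of 0.062, and the groups did not overlap. Both genes are similar in sequence, so that single values may depend on how reads were shared out between them. Their summed level, which depends on it less, was 327 and 325 TPM in sgNS and 184.1 and 183.6 TPM in METTL16 KO, or 56.4% of the sgNS mean.

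GMPS aminates the product of IMPDH1 and IMPDH2 to GMP. It measured 90.4 and 86.2 TPM in the sgNS libraries, against 61.8 and 59.0 TPM in those with METTL16 KO. Both METTL16 KO libraries were lower, with a log2 fold change of -0.55 ± 0.046 (SE, limma adjusted p of 1.1e-06). GMPS lies on the plus strand of chromosome 3 from 155870650 to 155944020. Together IMPDH1, IMPDH2 and GMPS summed to 417 and 412 TPM in sgNS and to 246 and 243 TPM in METTL16 KO, which is 59.0% of the sgNS mean, against 78.8% for the summed enzymes of IMP synthesis.

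On the AMP side, ADSS, listed here under an older symbol of ADSS2, commits IMP to AMP. It measured 50.7 and 51.0 TPM in the sgNS libraries, against 33.4 and 36.6 TPM in those with METTL16 KO. Both METTL16 KO libraries were lower, with a log2 fold change of -0.54 ± 0.055 (SE, limma adjusted p of 5.3e-06). ADSS lies on the minus strand of chromosome 1 from 244408494 to 244451909. Its muscle-type paralog ADSSL1, which is not among the 10, measured 1.9 and 1.35 TPM in the sgNS libraries, against 0.92 and 0.66 TPM in those with METTL16 KO, so that ADSS accounted for nearly all transcripts of this activity. At the IMP branch point, summed IMPDH1 and IMPDH2 stood at 6.44 and 6.38 times the level of ADSS in sgNS and at 5.52 and 5.02 times in METTL16 KO. The groups did not overlap, and the log2 of this ratio differed by -0.28, against a pooled SD between replicates of 0.069. For GMPS, which acts after IMPDH1 and IMPDH2, the ratio to ADSS overlapped between the groups (1.78 and 1.69 in sgNS, 1.85 and 1.61 in METTL16 KO). The log2 of that ratio differed by -0.0058 between the groups, against a pooled SD between replicates of 0.11.

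**Figure D3:**
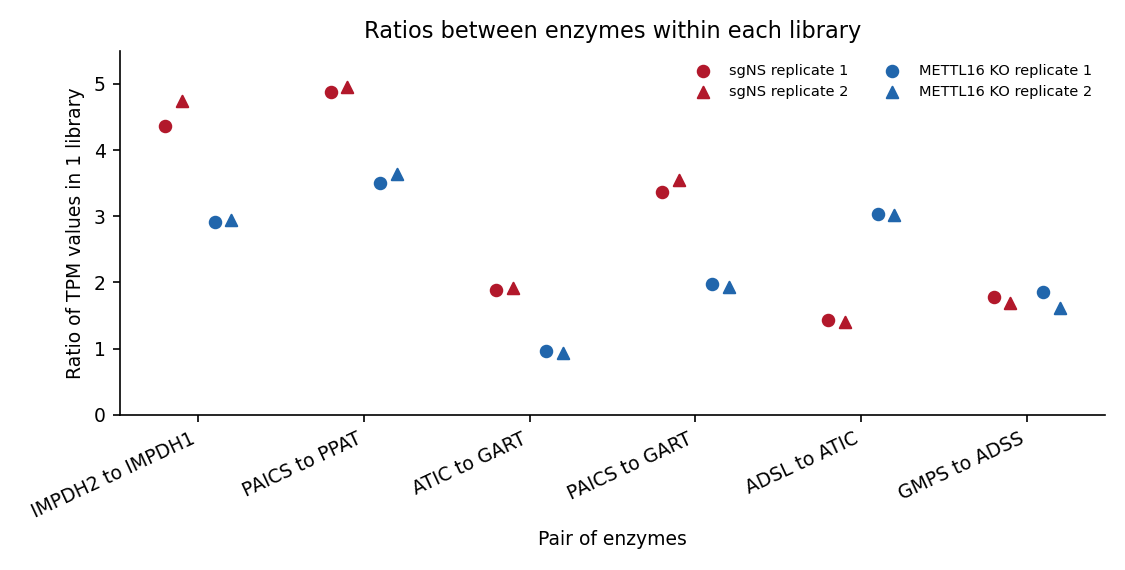
Ratios of TPM values within each library for 6 pairs of enzymes. Points are single libraries (circle, replicate 1; triangle, replicate 2; red, sgNS; blue, METTL16 KO); the groups lie apart for 5 pairs, with ATIC to GART near 1.9 in sgNS and under 1 in METTL16 KO, and overlap for GMPS to ADSS.

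Since the enzymes moved by different amounts, the make-up of the pathway's RNA changed. The 10 enzymes summed to 1094 and 1088 TPM in sgNS and to 775 and 769.8 TPM in METTL16 KO, or 70.8% of the sgNS mean. The share of IMPDH2 in that sum went from 24.3% and 24.7% to 17.7% and 17.8%, and that of ADSL from 15.1% and 14.8% to 23.6% and 23.3%. In sgNS the order of mean TPM was IMPDH2, PAICS, ADSL, ATIC, GMPS, GART, IMPDH1, ADSS, PPAT and PFAS, and only the neighbours GART and IMPDH1 overlapped. In METTL16 KO the order was ADSL, IMPDH2, PAICS, GART, GMPS, ATIC, IMPDH1, ADSS, PPAT and PFAS, and GMPS overlapped with ATIC and ADSS with PPAT. The most abundant enzyme exceeded the least abundant 7.03-fold in sgNS and 6.01-fold in METTL16 KO, with PFAS last in both. ATIC stood at 1.89 and 1.92 times the level of GART in sgNS and at 0.96 and 0.93 times in METTL16 KO, a log2 difference of -1.01 with a pooled SD of 0.029. ADSL, which supplies ATIC's substrate, was at 1.44 and 1.40 times the level of ATIC in sgNS and at 3.03 and 3.02 times in METTL16 KO.

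**Figure D4:**
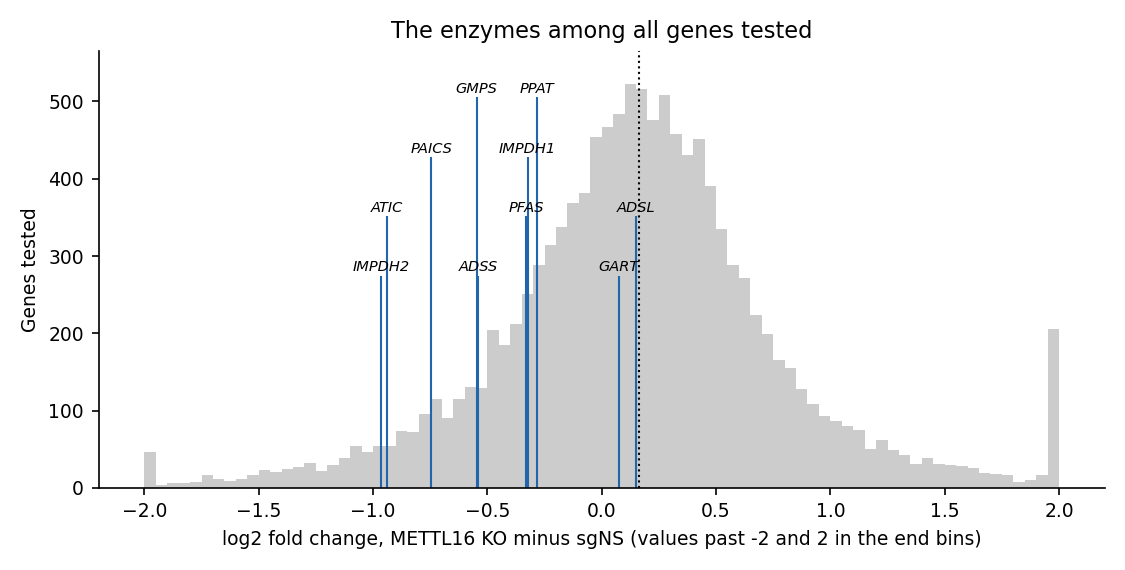
Histogram of the log2 fold change (METTL16 KO minus sgNS) of the 11971 genes tested, with values past -2 and 2 in the end bins and a dotted line at the median of 0.16. Blue lines mark the 10 enzymes, which run from IMPDH2 at -0.96 to ADSL at 0.15, all to the left of the median; line heights carry no value.

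METTL16 is known to methylate hairpins of the MAT2A transcript at the nonamer TACAGAGAA or its variant TACAGAAAA, written here as DNA. In the protein-coding transcripts of GENCODE 44, a MAT2A transcript held up to 5 copies of the former and up to 1 of the latter. TACAGAGAA was in no transcript of the 10 enzymes (3.88% of 19676 genes had it), and TACAGAAAA was in transcripts of GMPS alone (5.61% of genes). Letters alone do not show a hairpin or a methylated site, and methylation was not measured here.

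Genes that feed the pathway or bypass it were taken as lists, chosen with earlier results of these data known. Of the 5 genes listed under PRPP supply, PRPS2 and PRPS1L1 stayed under 1 TPM. The other 3, a synthetase and proteins associated with it, were called lower, against 25.6% of all genes. PRPP itself was not measured. The unmoderated model called only 1 gene of this list lower. PRPS1, the synthetase that makes PRPP, measured 64.8 and 68.3 TPM in the sgNS libraries, against 58.2 and 57.7 TPM in those with METTL16 KO, with -0.20 on the log2 scale (adjusted p of 0.0022 from limma). PRPSAP1, a protein associated with that synthetase, fell far more, from 71.3 and 69.9 TPM to 32.7 and 31.8 TPM, with a log2 fold change of -1.13 (adjusted p of 4.8e-09 from limma). Its partner PRPSAP2 had a log2 fold change of -0.17 (adjusted p of 0.0084 from limma).

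Of the 7 salvage genes, 4 were called lower, 2 higher and 1 neither way, against 25.6% and 50.1% of all genes, with a median log2 fold change of -0.096 against 0.16 for all genes. HPRT1, which returns hypoxanthine and guanine to IMP and GMP, had a mean of 23.7 ± 0.41 TPM in sgNS and 16.8 ± 0.96 TPM in METTL16 KO (SD, n = 2 each), and its log2 fold change was -0.50 (limma adjusted p of 3.3e-05). ADK, the adenosine kinase, had a log2 fold change of -0.49 (adjusted p of 4.1e-04) and DCK, the deoxycytidine kinase, one of -0.22 (adjusted p of 0.0065), both from limma. APRT, which salvages adenine, had -0.096 (adjusted p of 0.031 from limma). In the opposite direction, PNP, which splits purine nucleosides to bases, rose from 45.1 and 47.3 TPM to 74.6 and 73.2 TPM, a log2 fold change of 0.68 (adjusted p of 2.1e-07 from limma). DGUOK, the mitochondrial deoxyguanosine kinase, had 0.39 (adjusted p of 1.5e-05) and MTAP, which releases adenine from methylthioadenosine, had -0.030 without passing (adjusted p of 0.65), both from limma. The salvage genes were therefore called in both directions. After median-ratio scaling 5 of them were called lower and 2 higher, whereas the unmoderated model called 1 lower and 1 higher.

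GART and ATIC depend on formyl folate, and of the 8 genes tested for its supply or use 5 were called lower and 1 higher, against 25.6% and 50.1% of all genes (median log2 fold change -0.15). SHMT2, the mitochondrial serine hydroxymethyltransferase, fell from 253.1 and 252.9 TPM to 151.9 and 148.9 TPM, a log2 fold change of -0.75 (adjusted p of 8.9e-09 from limma). ALDH1L2, a mitochondrial dehydrogenase that consumes formyl folate and so does not add to its supply, fell from 6.52 and 5.96 TPM to 1.88 and 1.52 TPM (log2 fold change -1.82, adjusted p of 6.9e-07 from limma), and SHMT1, the cytosolic isozyme, by 0.21 on the log2 scale (adjusted p of 0.0018 from limma). MTHFD2L was the gene called higher, with a log2 fold change of 0.53 (adjusted p of 0.0015 from limma). Without METTL16 KO replicate 2, 3 genes of this list were called lower.

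**Figure D5:**
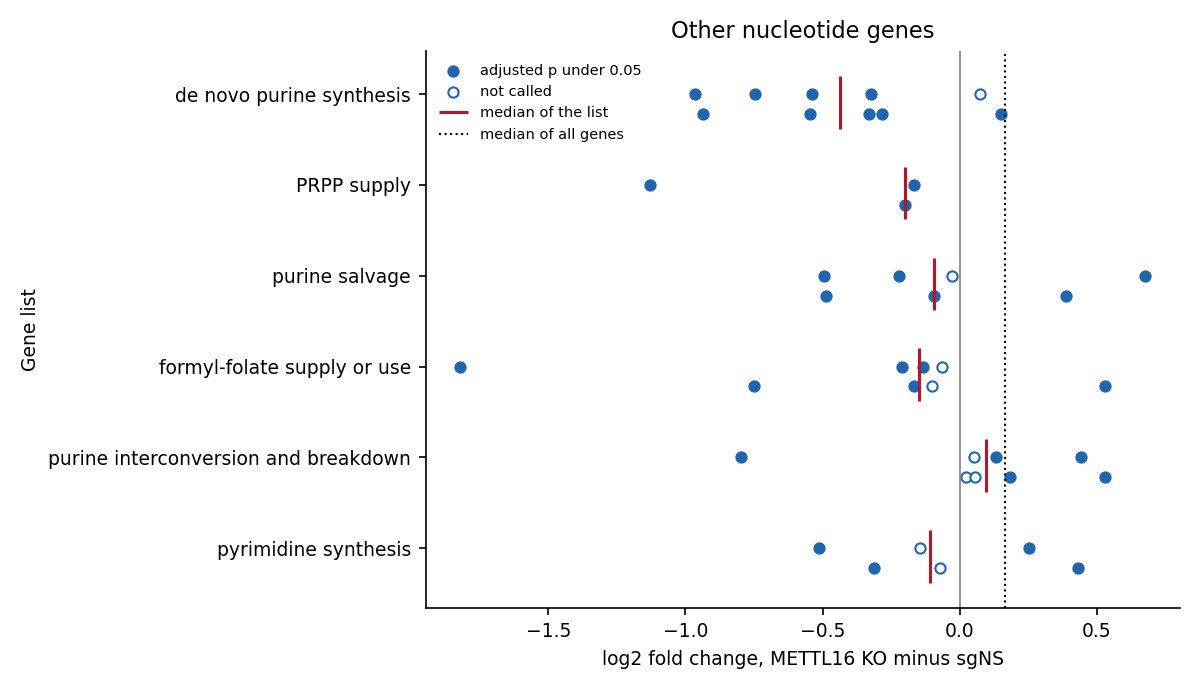
Log2 fold change (METTL16 KO minus sgNS) of the genes tested in 6 nucleotide gene lists. Filled points passed an adjusted p of 0.05 and open points did not, red bars are list medians and the dotted line is the median of all genes; the de novo enzymes have the lowest of the 6 list medians, at -0.44, although single genes of other lists fell further.

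Regulators of the pathway were given as values. MYC, a transcription factor known to activate purine synthesis genes, measured 68.2 and 65.9 TPM in the sgNS libraries, against 111.7 and 108.9 TPM in those with METTL16 KO. MYC RNA was thus higher in both METTL16 KO libraries, with a log2 fold change of 0.72 (adjusted p of 6.5e-08 from limma). The study's gene set analysis of these libraries reported MYC targets as suppressed upon METTL16 KO. The part of MYC in the change of the enzymes was not tested. MYCN, a relative of MYC, measured 45.6 and 45.6 TPM in the sgNS libraries, against 38.9 and 40.0 TPM in those with METTL16 KO (log2 fold change -0.21, adjusted p of 0.0020 from limma). MAX had a log2 fold change of 0.33 (adjusted p of 0.026), and ATF4, which drives amino acid and folate enzymes, had 0.11 (adjusted p of 0.0054), both from limma. After median-ratio scaling neither passed, with MAX at 0.16 and ATF4 at -0.056 (adjusted p of 0.24 and 0.11 from limma). With that scaling over all genes above 0, ATF4 was called lower, at -0.088 (limma adjusted p of 0.022).

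Proliferation genes were also measured, with 7 of 12 called lower and 2 higher, against 25.6% and 50.1% of all genes (median log2 fold change -0.35 against 0.16). The replication helicase subunits MCM6, MCM4 and MCM5 had log2 fold changes of -0.97, -0.87 and -0.84, the same range as IMPDH2 and ATIC. The 3 that did not pass were MKI67, TOP2A and CCNB1, with -0.13, -0.093 and -0.022, and after median-ratio scaling they were called lower, with -0.30, -0.26 and -0.19 (limma adjusted p of 0.0017, 7.9e-04 and 0.0012). In the other direction, MCM3 and CDK1 rose by 0.39 and 0.27 on the log2 scale. The rise of CDK1 did not pass after median-ratio scaling over all genes above 0, with 0.076 (limma adjusted p of 0.14). The part of the proliferation genes in the change of the enzymes was not tested.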

How the data were processed

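RNA-seq of 2 sgNS and 2 METTL16 KO libraries of Huh7 cells was analysed. According to the study's methods and the submitters' processing notes, the authors used Cutadapt for trimming, STAR for alignment against GRCh38 and RSEM for gene-level quantification, with versions and annotation not given in the sources used here. The deposited values are TPM, 1 column per library. The methods name them RPKM, but each column sums to 1000000. Labels mention both ribosomal RNA depletion and an mRNA kit.

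The enzymes, gene lists and tests were chosen with earlier results of these data known. The contrast METTL16 KO minus sgNS was fitted in limma 3.58.1 (R 4.3.3; lmFit, eBayes with trend) on log2(TPM + 0.1), two-sided, for genes with a mean of at least 1 TPM, and calls used a Benjamini-Hochberg adjusted p under 0.05 over all 11971 genes. The scale understates changes of low genes. Depth is unknown, so no counting error is given.

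All 10 enzymes are named, as are all PRPP, salvage and regulator genes. Of the other lists, the cell type markers apart, the called genes named are among the 3 with the largest change in each direction. Not every such gene is named. The 3 genes nearest in profile to IMPDH2 and to ATIC are also named. MKI67, TOP2A, CCNB1, CD68, PECAM1, PDGFRB and SERPINA1 were named after their values were seen. AK6 was not analysed here, and 1 kinase is not reported here. Positions are from GENCODE 44 and promoters from RefSeq, both GRCh38. A protein comparison that had been planned was not run. Alternatives were other pseudocounts (1 and 0.01), filters (all genes above 0, and a mean of 5 TPM), scalings, models, call rules and libraries left out. Median-ratio scaling over all genes above 0 was added after seeing the data. Python 3.11.15 and matplotlib 3.10.9 were used for tables and figures.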

Additional observations from a re-analysis of the deposited data

How the results depend on the processing

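IMPDH2, ATIC, PAICS, GMPS, ADSS and PPAT were called lower under each of the 14 alternative fits, and PFAS and IMPDH1 under 13 of 14, the exception being the unmoderated model (adjusted p of 0.14 and 0.051). With the replicate number as a block, 8 enzymes were again lower and 1 higher, and the block changed no call of an enzyme (3112 genes lower and 6048 higher over all genes). Libraries with the same number deviated from their group means with a correlation of -0.045 across genes, so the numbers were not taken as a pairing. The median log2 fold change of the enzymes, -0.44 as reported, was -0.60 after median-ratio scaling, -0.63 with that scaling over all genes above 0 and -0.58 after quantile normalization, and ranged from -0.49 (without sgNS replicate 2) to -0.40 (without METTL16 KO replicate 1) with 1 library left out. No enzyme was then called higher under these 3 scalings (0 against 1). ADSL reversed to -0.015 and -0.046 in the 2 forms of median-ratio scaling. GART reversed to -0.091 and -0.12 there, the latter called lower with an adjusted p of 0.025 from limma, and to -0.053 after quantile normalization. The study's fold threshold called 0 enzymes in either direction, since none reached it, and 449 genes lower and 920 higher over all genes, against 3065 and 5999. It also left METTL16 uncalled, at -0.50. The unmoderated model called 1949 genes lower, and median-ratio scaling over all genes above 0 called 4651 lower. Apart from the fold threshold, what causes these shifts was not tested. Since depth is unknown, the counting error behind each value, the enzymes included, cannot be given.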

Other observations

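Of 8 genes tested for purine interconversion and breakdown, 1 was called lower and 4 higher, against 25.6% and 50.1% of all genes, with a median log2 fold change of 0.095 against 0.16 for all genes. The lower one was AMPD2, the AMP deaminase that returns AMP to IMP, at 42.8 and 39.7 TPM with sgNS and 23.5 and 23.9 TPM with METTL16 KO (log2 fold change -0.80, adjusted p of 3.0e-07 from limma). NT5C, a nucleotidase, and GDA, the guanine deaminase, rose by 0.53 and 0.44 on the log2 scale (adjusted p of 9.3e-06 and 3.6e-04 from limma). After median-ratio scaling the list had 2 genes called lower and 2 higher, and without METTL16 KO replicate 2 it had 2 called higher. Of 7 nucleotide kinases 4 were called higher as deposited, a share near the 50.1% of all genes, and 2 after median-ratio scaling over all genes above 0. AK3 and AK4, mitochondrial adenylate kinase family members, had log2 fold changes of 0.58 and 0.57, and GUK1, which phosphorylates GMP, had 0.30, while NME2, a nucleoside diphosphate kinase, had -0.14.

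Pyrimidine synthesis, the parallel pathway, was mixed, with 2 of 6 genes called lower and 2 higher, against 25.6% and 50.1% of all genes. CMPK1, the kinase of CMP and UMP, and CAD, which carries the opening reactions, had log2 fold changes of -0.51 and -0.31, whereas UMPS, which completes UMP, and CTPS1, a CTP synthase, had 0.43 and 0.25 (adjusted p from 3.4e-07 to 0.0021 from limma). After median-ratio scaling 4 were called lower and 1 higher.

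Over the 4 libraries, the genes outside the pathway with the profile nearest to IMPDH2 were HIST1H1A, ABI2 and SUMF1 (Euclidean distances of centred log2(TPM + 0.1) of 0.025, 0.028 and 0.032), and those nearest to ATIC were RACK1, CRTAP and HIST1H1A (0.021, 0.037 and 0.039). With 4 libraries such distances mainly reflect a like fold change.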
